A study of Arabis alpina with 9 samples.

Results

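The genes described here are 6 Arabis alpina genes of the sulphur limitation response and of sulphate reduction, out of 1487 genes in the authors' lists and 30538 in the count table. They are the listed genes paired with the Arabidopsis codes of SDI1 (AT5G48850), SDI2 (AT1G04770), LSU2 (AT5G24660), APR1 (AT4G04610), APR2 (AT1G62180) and APR3 (AT4G21990). Each code was paired with 1 gene ID, and all 6 genes passed the filter on low counts. They were chosen by the authors' own fold changes and adjusted p-values of the mutant against its control, so their lower values in that comparison are a description and carry no test here.

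Plants take up sulphate, activate it in the plastid and elsewhere, reduce it in the plastid to sulphite and then to sulphide, and build the sulphide into cysteine. Adenosine phosphosulphate reductase, encoded by the APR genes, makes sulphite and is regarded as a main point of control of the pathway in Arabidopsis. SDI and LSU genes are known from Arabidopsis for strong induction when sulphur runs short, which makes them common reporters of sulphur status, and SDI proteins hold back glucosinolate synthesis there.

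The series asks how AaTFL1, a counterpart of a floral repressor gene of Arabidopsis, takes part in flowering of the perennial Arabis alpina. All 9 libraries came from the eop089 mutant, a line the labels give by name only, in the accession Pajares and grown in long days. There were 3 libraries each from dissected shoot apices of 3-week-old plants, from dissected shoot apices of 5-week-old plants, and from leaves 5 and 6 of 5-week-old plants. Control libraries were not analysed here, and the labels do not tell whether replicates are separate plants. The p-values therefore reflect only how far these libraries differ, which may be technical.

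The libraries held between 11859813 and 13382460 counts in genes. Of the 6 mature leaf markers looked for, the files paired 3 with an ID (CA1, CAT2 and LHCB2.1), and their summed level was 16766 to 17396 CPM (counts per TMM-scaled library size) in leaf. It was 203 to 303 CPM in the 3-week apex and 137 to 423 CPM in the 5-week apex, where CAT2 had 0 counts. None of the 8 shoot apex markers was paired with an ID, so the apex label was not checked by them. In bulk tissue, fewer cells of a type and less RNA per cell cannot be told apart.

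In the 3-week apex all 6 genes were listed below the control, with the SDI and LSU genes further down than the reductase genes. The list holds 85 lower genes, 0.373% of the 22764 genes that were listed or had at least 10 counts. For SDI1 (Aa_G138960) the authors' deposited table gives a mutant to control ratio of 0.148, with a mutant mean of 50.36 normalized counts. LSU2 (Aa_G392350) had a ratio of 0.267 there, on a mutant mean of only 12.8 (the authors' deposited table). The authors' deposited table puts SDI2 (Aa_G477790) at a ratio of 0.285, with 94.37 as mutant mean.

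The 3 reductase genes followed at smaller folds but on higher means. The authors' deposited table gives ratios of 0.342 for APR3 (Aa_G117440), 0.405 for APR1 (Aa_G320680) and 0.482 for APR2 (Aa_G222620). Their mutant means there, again in the authors' deposited table, were 187.74, 313.6 and 377.19 normalized counts. Ordered by fold within the 85 genes of the authors' deposited table, SDI1 ranked 9 and APR2 ranked 74. No listed gene is under a 2-fold change, so APR2 lay just inside that threshold.

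In the leaf 5 of the 6 genes were listed lower, and APR1 was not listed. The leaf list holds 801 lower genes, 3.52% of the same 22764. The ratios in the authors' deposited table were 0.257 for SDI1, 0.306 for SDI2 and 0.375 for LSU2. For APR3 and APR2 they were 0.333 and 0.41 in the authors' deposited table, on mutant means of 191.65 and 563.51 normalized counts. These 5 genes sat in the middle of that long list, at ranks 286 to 576 by fold in the authors' deposited table. In the 5-week apex none of the 6 genes was in the authors' deposited table, among 50 lower genes (0.220%) or 66 higher ones (0.290%). Whether the difference from the control itself changed with age or organ was not tested, since control libraries were not analysed here.

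Within the mutant the order of the group means differed among the genes. SDI1 and SDI2 had their highest mean level in the 5-week apex and their lowest in the leaf. APR1 and APR3 were highest in the 5-week apex and lowest in the 3-week apex. APR2 and LSU2 were highest in the leaf and lowest in the 3-week apex. The order of leaf and 5-week apex is uncertain for APR1 and LSU2, whose difference there did not pass the test, and it turned for APR2 and LSU2 when libraries were scaled by total counts, as did the order of leaf and 3-week apex for APR3. Leaf and 5-week apex also changed places without 1 library, 5-week apex replicate 2 or leaf replicate 3 for APR1 and leaf replicate 2 for LSU2.

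**Figure D1:**
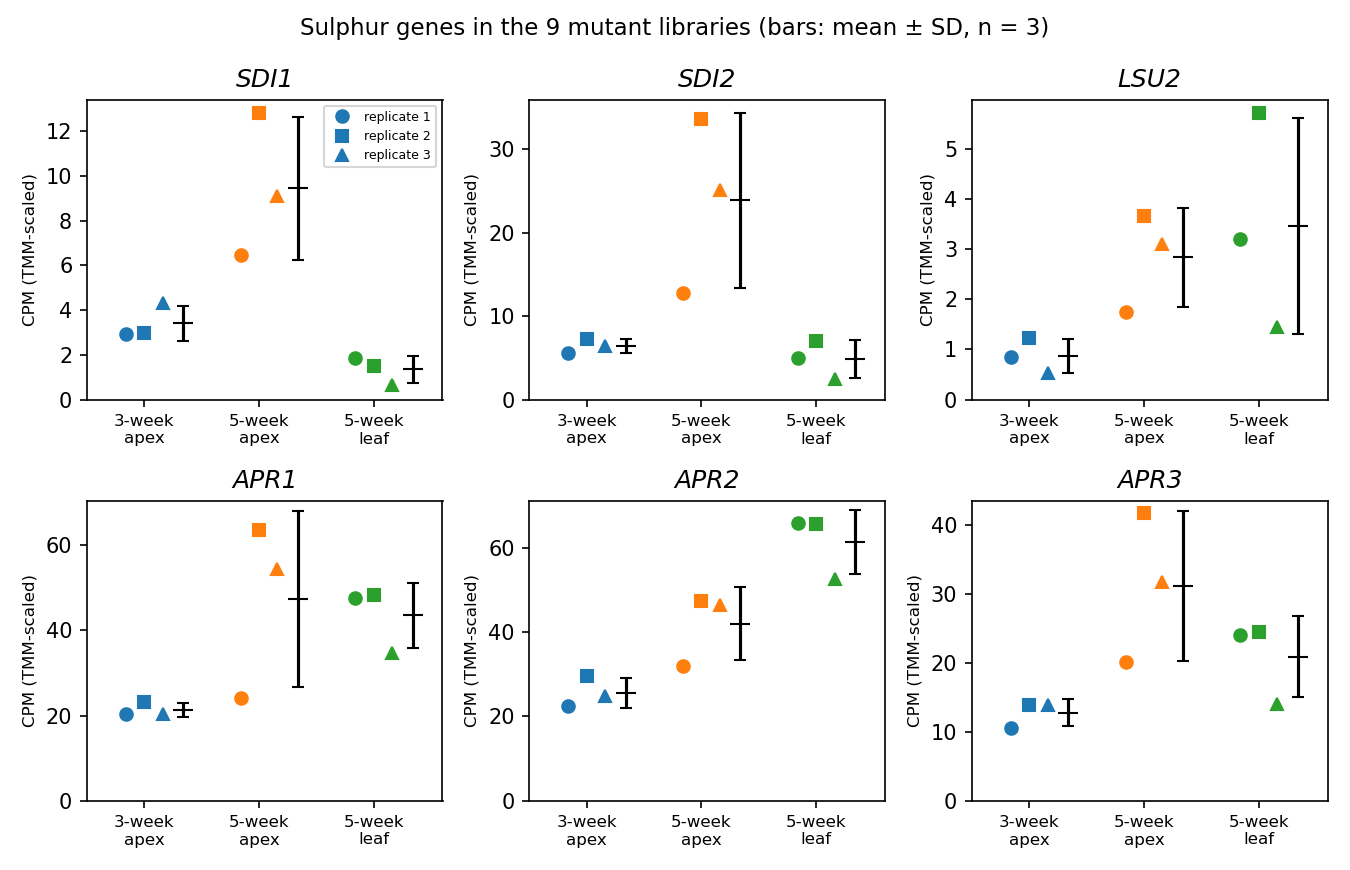
Normalised read count (CPM, TMM-scaled, linear axis from 0) of the 6 sulphur genes in the 3-week apex, 5-week apex and 5-week leaf of the mutant, 1 point per library and a bar for mean ± SD (n = 3). The 5-week apex points lie above all 3-week apex points for each gene, and replicate 1 (circle) is the lowest 5-week apex point in every panel.

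SDI1, whose product is known in Arabidopsis as a repressor of glucosinolate synthesis, was the gene furthest down in the leaf. Its level was 2.93, 2.99 and 4.32 CPM in replicates 1, 2 and 3 of the 3-week apex, 6.44, 12.8 and 9.11 in the 5-week apex, and leaf values were 1.88, 1.49 and 0.669. The 3 groups did not overlap, and the leaf values rested on 17, 14 and 6 counts. SDI1 rose from 3.42 ± 0.784 CPM (SD, n = 3) in the 3-week apex to 9.45 ± 3.19 (SD, n = 3) in the 5-week apex, a change of 1.46 on the log2 scale (SE 0.256, edgeR quasi-likelihood adjusted p = 3.23e-04). It was 6.96-fold lower in the leaf, at 1.34 ± 0.616 CPM (SD, n = 3), than in the 5-week apex, a change of -2.80 on the log2 scale (SE 0.332, edgeR adjusted p = 8.31e-07).

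SDI2, the close relative of SDI1, kept the same order of means. Its level was 5.54, 7.21 and 6.45 CPM in the 3-week apex, 12.8, 33.7 and 25.2 in the 5-week apex, and leaf values were 4.97, 7.00 and 2.45, in replicate order. Every 5-week apex library lay above the rest, while the leaf and the 3-week apex overlapped. The log2 fold change from the 3-week to the 5-week apex was 1.90 (SE 0.287, edgeR adjusted p = 9.20e-05), a 3.73-fold rise to 23.9 ± 10.5 CPM (SD, n = 3). SDI2 was 4.92-fold lower in the leaf than in the 5-week apex (-2.30 on the log2 scale, SE 0.328, edgeR adjusted p = 7.03e-06). The leaf against the 3-week apex gave -0.40 (SE 0.378, edgeR adjusted p = 0.347), which did not pass the test, and these neighbours in the order lay within their spread.

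LSU2 encodes a small protein of the LSU family (named for response to low sulphur) and had the fewest counts. Its level was 0.847, 1.22 and 0.532 CPM in the 3-week apex, 1.74, 3.67 and 3.10 in the 5-week apex, and leaf values were 3.20, 5.73 and 1.45. All 5-week apex libraries and all leaf libraries were above the 3-week apex, but the leaf spanned the whole range of the 5-week apex. The 3-week apex values came from 13, 18 and 8 counts, which limits their precision. LSU2 was 3.24-fold higher in the 5-week than in the 3-week apex (1.70 on the log2 scale, SE 0.447, edgeR adjusted p = 0.00678). In the leaf it was 3.99-fold higher than in the 3-week apex (2.00 on the log2 scale, SE 0.462, edgeR adjusted p = 9.44e-04). Leaf and 5-week apex gave 0.30 (SE 0.387, edgeR adjusted p = 0.490).

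APR1 is 1 of the 3 genes for plastid adenosine phosphosulphate reductase. Its level was 20.3, 23.1 and 20.5 CPM in the 3-week apex, 24.0, 63.7 and 54.4 in the 5-week apex, and leaf values were 47.6, 48.4 and 34.8. Replicate 1 of the 5-week apex was just above the 3-week apex libraries and well below the other 5-week apex libraries. The log2 fold change from the 3-week to the 5-week apex was 1.15 (SE 0.241, edgeR adjusted p = 0.00136). In the leaf APR1 was 2.05-fold higher than in the 3-week apex (edgeR adjusted p = 0.00138), a call lost with total-count scaling (0.31 on the log2 scale, adjusted p = 0.265). Leaf against 5-week apex gave -0.12 (SE 0.235, edgeR adjusted p = 0.657), and this is the 1 comparison of a sulphur gene here that shares no library with a listing of that gene. Without 5-week apex replicate 1 the value was -0.44 (edgeR adjusted p = 0.00168).

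APR2, the reductase gene whose variation is known to affect sulphate content in Arabidopsis, was the 1 member called higher in the leaf than in both apex groups. Its level was 22.4, 29.5 and 24.9 CPM in the 3-week apex, 31.9, 47.3 and 46.5 in the 5-week apex, and leaf values were 65.8, 65.5 and 52.6. The 3 groups did not overlap. Between the apex ages APR2 rose by 0.71 on the log2 scale (SE 0.138, edgeR adjusted p = 7.47e-04), the smallest rise of the 6 genes. From the 5-week apex to the leaf it was 0.55 (SE 0.133, edgeR adjusted p = 0.00125). That last direction depended on scaling. With libraries scaled by total counts alone it was -0.28 (edgeR adjusted p = 0.0643), as the median of all genes then moved from -0.10 to -0.93, and relative to that median the value was 0.65 under either scaling.

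APR3, also a reductase gene, was highest in the 5-week apex. Its level was 10.5, 13.8 and 13.9 CPM in the 3-week apex, 20.0, 41.7 and 31.7 in the 5-week apex, and leaf values were 24.1, 24.4 and 14.1. Both the 5-week apex and the leaf lay above the 3-week apex in every library, and they overlapped with each other. From the 3-week to the 5-week apex the log2 fold change was 1.29 (SE 0.224, edgeR adjusted p = 3.05e-04). The leaf was 1.49-fold lower than the 5-week apex (edgeR adjusted p = 0.0273). That call was lost without 5-week apex replicate 2 (-0.31, edgeR adjusted p = 0.179), 5-week apex replicate 3 (-0.57, adjusted p = 0.0561) or leaf replicate 3 (-0.36, adjusted p = 0.138). Leaf against 3-week apex gave 0.71 (SE 0.243, edgeR adjusted p = 0.0141), lost without 3-week apex replicate 1 (0.59, adjusted p = 0.0622), leaf replicate 1 (0.60, adjusted p = 0.0681) or leaf replicate 2 (0.58, adjusted p = 0.0747). By total counts the latter was -0.01 (edgeR adjusted p = 0.972).

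Counted together, all 6 members rose from the 3-week to the 5-week apex, with no overlap between the groups. Over all 20633 genes tested, 19.1% were called higher at 5 weeks and 25.9% did not overlap in that direction. The median log2 fold change was 1.38 for the 6 genes and 0.01 for all genes. The 6 genes were listed for being low in these same 3-week apex libraries, so this direction is not independent of how they were chosen. The calls and directions held in all 17 alternatives run. Of the 3 paired leaf markers CA1 and CAT2 fell over the same ages, CA1 from 32.3, 4.90 and 13.6 CPM to 0.322, 0.333 and 0.990. CAT2 had 42, 2 and 3 counts in the 3-week apex, largely from replicate 1, and 0 in each 5-week apex library. Both were listed higher in these same 3-week apex libraries (ratios of 2.44 and 4.4, the authors' deposited table). Only listed genes could be paired, so the direction of their fall is not independent of that listing. LHCB2.1, the remaining marker, did not pass (231 ± 39.4 and 294 ± 145 CPM, SD, n = 3 each, 0.35 on the log2 scale, edgeR adjusted p = 0.307), but was called higher at 5 weeks without 5-week apex replicate 1 (0.69, adjusted p = 2.65e-04). The part of leaf tissue in the change of the sulphur genes was not tested.

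**Figure D2:**
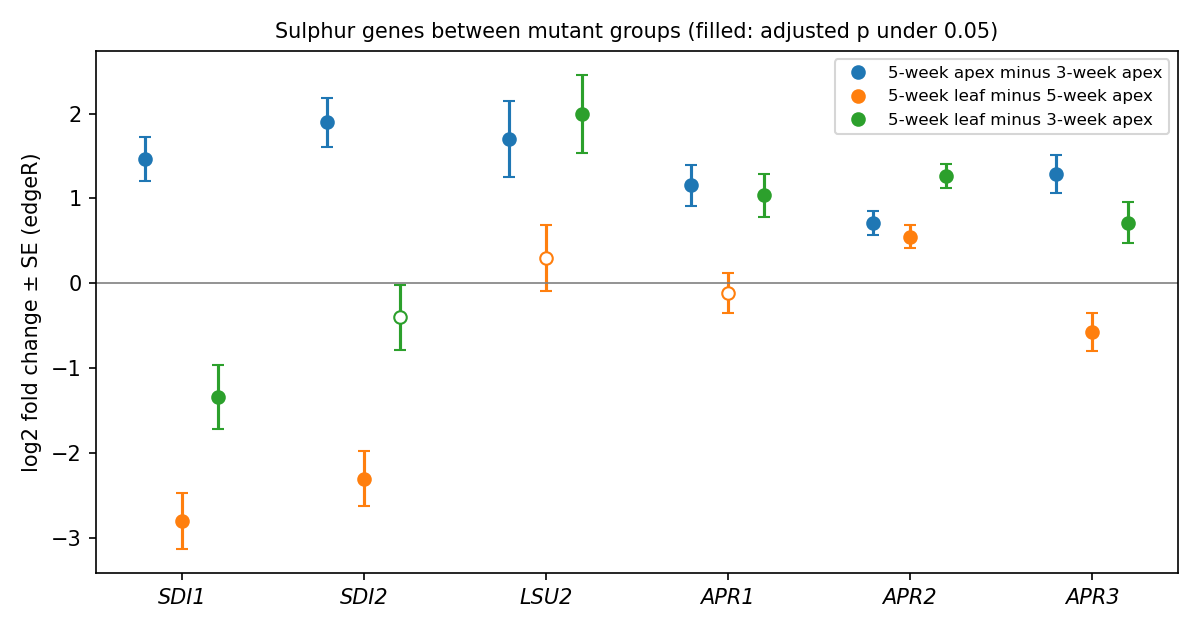
Log2 fold change (edgeR, bars ± SE) of the 6 sulphur genes between mutant groups, with filled points for an adjusted p under 0.05 and open points for the rest. All 6 genes lie above 0 from the 3-week to the 5-week apex, while leaf against 5-week apex runs from -2.80 for SDI1 to 0.55 for APR2.

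Between leaf and 5-week apex the genes parted, with SDI1, SDI2 and APR3 called lower in the leaf, APR2 called higher and LSU2 and APR1 not called. Among all genes 42.0% were called lower and 37.1% higher in that comparison, and the median log2 fold change was -0.35 for the 6 genes against -0.10. Without overlap between the groups, SDI1 and SDI2 were lower (42.3% of all genes) and APR2 higher (37.4%). The 4 of 6 members called in either direction are set against 79.1% of all genes, so the number of calls does not stand out. All members but APR1 were listed for being low in these same leaf libraries. A lower leaf value is thus not independent of how they were chosen. In the comparison of leaf with 3-week apex LSU2, APR2, APR1 and APR3 were called higher (36.6% of all genes) and SDI1 lower (38.3%). For SDI1 that change was 2.52-fold (-1.34 on the log2 scale, SE 0.377, edgeR adjusted p = 0.00434), and for APR2 it was 2.40-fold (1.26 on the log2 scale, SE 0.139, edgeR adjusted p = 3.80e-07). The same 5 genes did not overlap between these groups, which held for 38.2% of all genes on the higher and 40.4% on the lower side. All 6 members were listed for being low in these same 3-week apex libraries, so these values are not independent of the listings either.

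The 6 genes also moved together among replicates of the 5-week apex and of the leaf, and less so in the 3-week apex. In the 5-week apex replicate 1 was the lowest and replicate 2 the highest library for all 6 genes, whereas these were the lowest for 38.4% and the highest for 35.9% of all tested genes. Divided by the average of replicates 2 and 3, their level in replicate 1 gave 0.407 to 0.680, with a median of 0.530, against 0.991 over all tested genes. In the leaf replicate 3 was the lowest for all 6 genes (34.4% of all tested genes), and the same ratio, to replicates 1 and 2, had a median of 0.495. In the 3-week apex replicate 1 was the lowest for 5 of the 6 (33.1% of all tested genes), with a median ratio of 0.818 against 0.999. The highest library there was replicate 2 for 4 genes and replicate 3 for 2, and in replicate 3 SDI1 was at its highest and LSU2 at its lowest.

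The spread between replicates differed among the 6 genes. The highest library over the lowest had a median of 2.09 over the 6 genes in the 5-week apex and 2.27 in the leaf, against 1.17 and 1.16 over genes whose average log2 CPM reached 2. These genes were not matched on level. In the leaf the low-count genes LSU2 (3.95), SDI2 (2.85) and SDI1 (2.80) spread most, while APR1 (1.39) and APR2 (1.25) spread least. In the 3-week apex the members' median was 1.32, against 1.12.

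**Figure D3:**
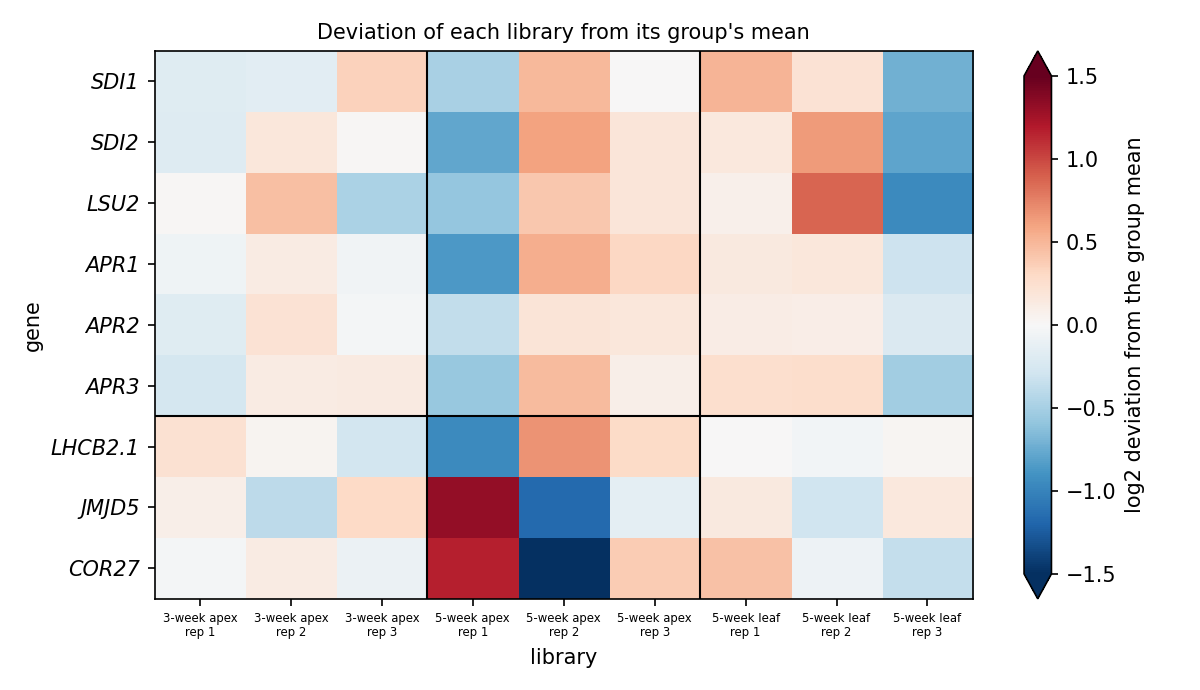
Deviation of each library from its group's mean (log2 scale, colour) for the 6 sulphur genes (upper rows) and for the leaf marker LHCB2.1 and the clock-related genes JMJD5 and COR27 (lower rows), across the 9 libraries. Replicate 1 of the 5-week apex and replicate 3 of the leaf are blue for all 6 sulphur genes.

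Correlations of log2 CPM describe the same pattern, as values over 9 libraries of 1 line, in sets of 3 that share a tissue and an age. Over the 15 pairs of members Pearson's r of the deviations from the group means ran from 0.584 (SDI1 with LSU2) to 0.958 (SDI2 with APR3), with a median of 0.877. Over the 9 library values themselves r ran from -0.289 (SDI1 with APR2) to 0.933 (SDI1 with SDI2).

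Other genes moved with the same replicates of the 5-week apex. LHCB2.1, a light-harvesting gene, had 136, 423 and 322 CPM in replicates 1, 2 and 3, so its order was that of the sulphur genes. JMJD5, a clock-associated gene, had 34.9, 6.07 and 12.5 CPM and COR27, a cold- and clock-regulated gene, 3.48, 0.333 and 1.91, which is the opposite order. JMJD5 and COR27 were chosen after their values were seen. In the leaf LHCB2.1 was 7742, 7470 and 7858 CPM and did not follow the low values of the sulphur genes in replicate 3. Among genes given below, MGL, CYP79B2, CYP83B1, SOT16, SULTR3;2 and SULTR4;2 were also lowest in that library. CYP79F1, MYB29 and SULTR3;4 were highest there. MGL and SULTR4;2 also had the order of the sulphur genes in the 5-week apex, while CYP79B2 and SOT16 did not. Such replicate differences were thus not particular to the sulphur genes. The sources used here do not give the hour of harvest, and its part in these differences was not tested.

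Genes most like each member were sought among 708 listed genes with an Arabidopsis code, a unique ID and an average log2 CPM of 2 or more, by Pearson's r over the 9 libraries. For SDI1 these were AT3G22550 (r of 0.957), TCP23 (0.954) and scpl14 (0.943), and for SDI2 they were TCP23 (0.912), NIK1 (0.903) and ARR15 (0.894). TCP23, a gene for a TCP transcription factor, was thus near the top for both SDI genes. LSU2 was most like WRKY54 (0.981), a WRKY transcription factor gene, then AT3G13040 (0.921) and AT1G19715 (0.907). An r of 0.9 or more was reached by 15 candidates for SDI1, 2 for SDI2 and 3 for LSU2.

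The reductase genes had other neighbours over the 9 libraries. APR1 was nearest to AT3G53830 (r of 0.915), AT3G13040 (0.889) and AT3G04860 (0.887). APR2 was nearest to the B-box gene BBX28 (0.956), the U-box gene PUB9 (0.951) and the light-regulated PIL1 (0.949). APR3 was nearest to the auxin-related SAUR72 (0.925), AT4G36010 (0.911) and AT5G46780 (0.895). An r of 0.9 or more was reached by 1 candidate for APR1, 16 for APR2 and 2 for APR3.

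With group means removed, SAUR72 was among the 3 nearest for all reductase genes, with r of 0.950 to APR1, 0.944 to APR2 and 0.916 to APR3. PUB9 (0.979) and AT5G05090 (0.960) were the others for APR1, PHOT1 (0.918) and PIMT2 (0.915) for APR2, and AT1G72820 (0.910) and AT3G13040 (0.902) for APR3. AT1G72820 was also the nearest to SDI2 (0.960), before EDA40 (0.945) and DGAT3 (0.936). For LSU2 the nearest were MLO8 (0.950), WRKY54 (0.949) and PAE9 (0.936), and for SDI1 they were CST (0.926), RVE2 (0.895) and ESE3 (0.895). Per member, from 1 (SDI1) to 9 (APR1) candidates reached an r of 0.9 here. All candidates were listed by the authors, partly on these libraries, so these values describe a selected set.

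Of 61 other genes of sulphur metabolism looked for, 14 were listed in any setting, and 6 of the 44 outside glucosinolate synthesis. No listed gene was matched to the 9 genes for sulphate activation, its APS kinase branch and sulphite reduction. Nor was any matched to the 12 for cysteine and glutathione synthesis. The same held for 8 further low-sulphur response genes and regulators, LSU1, LSU3 and SLIM1 among them. Only listed genes have an Arabidopsis code here, and of the 1487 listed genes 1079 have one. A listed gene without a code could not be matched, and the levels of the genes not matched were not analysed here. Among listed genes with a code, those matched in the low-sulphur response and in sulphate reduction were therefore the 6 members.

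Sulphate transporter genes accounted for 5 of those 14, out of 12 looked for, and their directions were mixed. SULTR1;2, which in Arabidopsis takes up sulphate in roots, was listed lower in the 3-week apex (ratio of 0.321, the authors' deposited table). It had only 10, 6 and 5 counts there, 1, 2 and 3 in the 5-week apex, and leaf values were 1, 1 and 4, and was below the filter. SULTR3;3 was listed lower in the 5-week apex (ratio of 0.485, the authors' deposited table). In the leaf SULTR4;2, known in Arabidopsis for export of sulphate from the vacuole, was listed at a ratio of 0.429, SULTR3;4 at 0.44 and SULTR3;2 at 4.96, per the authors' deposited table. The SULTR3;2 listing rested on few counts, with 17, 19 and 8 in the leaf libraries and a mutant mean of 14.67 normalized counts (the authors' deposited table).

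**Figure D4:**
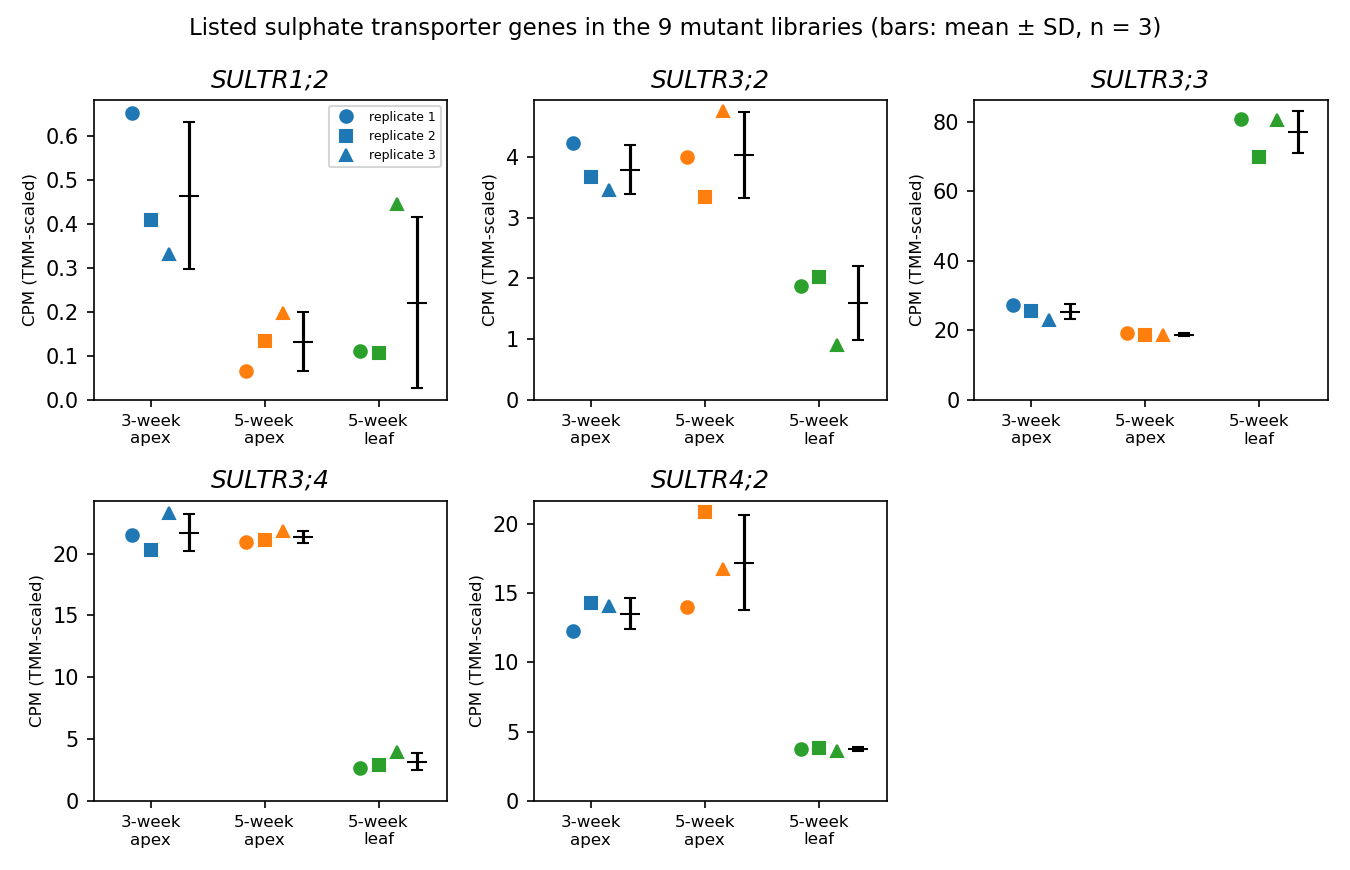
Normalised read count (CPM, TMM-scaled, linear axis from 0) of the 5 listed sulphate transporter genes in the 3 mutant groups, 1 point per library and a bar for mean ± SD (n = 3). SULTR3;2, SULTR3;4 and SULTR4;2 are lower in every leaf library than in any apex library, and SULTR3;3 is higher.

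Between the apex ages the 4 tested transporter genes did not all rise as the 6 genes did. SULTR4;2 and SULTR3;2 had the same order of group means as SDI1 and SDI2. From the 3-week to the 5-week apex SULTR3;3 fell from 25.3 ± 2.20 to 18.7 ± 0.378 CPM (SD, n = 3 each), or by -0.43 on the log2 scale (edgeR adjusted p = 0.00109). SULTR4;2 had 12.3, 14.3 and 14.1 CPM in the 3-week apex and 14.0, 20.9 and 16.8 in the 5-week apex, which overlap (log2 fold change of 0.35, edgeR adjusted p = 0.0462). SULTR3;4 (-0.03, edgeR adjusted p = 0.856) and SULTR3;2 (0.09, adjusted p = 0.782) did not pass. The call for SULTR4;2 was lost without any 1 of the 3-week apex replicates 1, 2 and 3, the 5-week apex replicates 2 and 3 or the leaf replicates 1 and 2, with values between 0.19 and 0.39, and also with RLE scaling, with DESeq2 and with the 2 apex groups alone. In the leaf, against the 5-week apex, SULTR3;3 was 4.12-fold higher (edgeR adjusted p = 9.97e-13), SULTR3;4 6.78-fold lower (adjusted p = 1.46e-11) and SULTR4;2 4.62-fold lower (adjusted p = 4.55e-09). SULTR3;2 was lower there too, by 2.51-fold (edgeR adjusted p = 3.83e-04), though it was listed higher in the leaf. SULTR3;3 was listed lower in these same 5-week apex libraries, and SULTR3;4 and SULTR4;2 in these same leaf libraries. The fall of SULTR3;3, its higher leaf level and the lower leaf levels of SULTR3;4 and SULTR4;2 are thus not independent of the listings.

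Glucosinolates hold much of the sulphur of secondary metabolism in this plant family, and 8 of 17 genes of their synthesis were listed, against 6.53% of the 22764 genes. The 17 genes were chosen with earlier results of these data known, so this share is a description and carries no test. In the 3-week apex, where SDI1 and SDI2 were listed lower, the aliphatic genes BCAT4 (ratio of 7.32), CYP79F1 (2.95) and MYB29 (2.05) were listed higher in the authors' deposited table. BCAT4 acts in lengthening methionine, CYP79F1 makes the aldoxime from it, and MYB29 is a regulator of the aliphatic branch. The levels of the first and the second there came largely from replicate 1, with 3.19, 0.340 and 0.399 CPM for BCAT4 and 7.37, 1.22 and 1.53 for CYP79F1. CA1 was highest in that library too, and its part was not tested. In the 5-week apex, where neither SDI gene was listed, the indole genes CYP79B2 (ratio of 2.29) and CYP79B3 (8.09) were listed higher, per the authors' deposited table. Replicate 3 was far above the others there, with 8.44, 7.93 and 19.1 CPM for CYP79B2 and 0.322, 0.333 and 2.51 for CYP79B3. In the leaf, where SDI1 and SDI2 were listed lower, the same genes had the opposite direction. There CYP79B2, CYP79B3, CYP83B1, MYB51 and SOT16 of the indole branch were listed lower in the authors' deposited table and no aliphatic gene was listed.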

How the data were processed

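Polyadenylated RNA was sequenced as single reads from NEBNext directional libraries on a HiSeq2500, per the labels' protocols. The deposited table holds whole-number counts per gene, as made by the authors, with 34220 entries for 30538 gene IDs and 5 special entries. The special entries were kept out of library sizes and tests, and ambiguous reads were 2.78% to 3.37% per library. Reads without a feature differed by group, with 7.94% to 8.30% in the leaf and 10.7% to 11.0% in the 3-week apex. In replicates 1, 2 and 3 of the 5-week apex they were 13.9%, 16.3% and 14.6%, the same order as the sulphur genes. The part of this share in the differences between groups and replicates was not tested. STAR, HTSeq 0.5.4p1, DESeq and DESeq2 are named, with no role, per the submitters' processing notes. The genome build, the annotation and the strand setting of counting were not found in the labels or file headers (not given in the sources used here), nor was the treatment of reads that match several genes, which bears on relatives such as APR1 and APR3.

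The 6 lists hold, per the file headers, a fold (the ratio of mutant to control means), its log2, an adjusted p-value and mean expression signals in normalized counts, all as deposited by the authors. The 12 columns of control means and of means over mutant and control belong to no sample here and were not used. Per list, the authors' mutant means were proportional to the averages of that group's 3 libraries (within 5% for at least 99.9% of genes with a mean of 10 counts), so lists and libraries describe the same samples.

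The test was edgeR 4.0.16 under R 4.3.3 (TMM, its expression filter, quasi-likelihood F-test, 1 model with 3 groups), with Benjamini-Hochberg adjustment over the 20633 genes kept and a threshold of 0.05. The SE was obtained by dividing the size of the log2 fold change by the root of its F statistic. CPM are counts per TMM-scaled library. Correlations used log2 CPM with a prior of 3 counts. The alternatives were RLE and total-count scaling, no filter, DESeq2 1.42.0, limma 3.58.1 with voom, the 2 groups only, a replicate block, summed entries and each library left out. The test was checked on simulated counts.

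Named genes are the 6 members, every listed gene of the fixed pathway lists and, for each member, the 3 listed genes with the highest correlation over the libraries and over the deviations. The members and lists were chosen with earlier results of these data known.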

Additional observations from a re-analysis of the deposited data

How the results depend on the processing

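For the change from the 3-week to the 5-week apex, the values of the 6 sulphur genes kept their direction and their call in all 17 alternatives (102 values). Between leaf and 5-week apex 91 of 102 values did so, 5 turned in sign and 6 changed only their call, and between leaf and 3-week apex these were 95, 1 and 6. Scaling by total counts moved the median of all genes to 0.12, -0.93 and -0.76 on the log2 scale in these comparisons. It gave -0.28 for APR2 and -0.53 for LSU2 (not called either way) between leaf and 5-week apex, -0.010 for APR3 and -0.12 for SOT16 between leaf and 3-week apex, each turned in sign. The other sign changes were of values not called, between leaf and 5-week apex, to -0.28 for LSU2 without leaf replicate 2 and to 0.15 and 0.018 for APR1 without 5-week apex replicate 2 and without leaf replicate 3. With total-count scaling APR1 was called lower in the leaf than in the 5-week apex (-0.95, edgeR adjusted p = 0.00152). Against the 3-week apex APR1 was then not called (0.31, adjusted p = 0.265), while SDI2 was (-1.12, adjusted p = 0.0120). With that scaling the share of calls that were higher moved from 47.6% to 66.1% between the apex ages, from 46.9% to 22.0% between leaf and 5-week apex and from 48.9% to 22.8% between leaf and 3-week apex. DESeq2 gave 37.3% higher calls between the apex ages, and with it APR3 was not called between leaf and either apex group (adjusted p = 0.155 and 0.0516).

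Leaving out each library in turn, all 6 genes stayed called between the apex ages, 3 to 5 between leaf and 5-week apex and 4 to 5 between leaf and 3-week apex. Calls over all genes ran from 6256 to 8697, from 15689 to 16365 and from 14781 to 15827. With the replicate block the calls were 7681, 16114 and 15242, and 6, 4 and 5 of the sulphur genes. Libraries with the same replicate number did not deviate together (correlations from -0.143 to 0.005, and 0 of 9 libraries correlated best with their own number). No pairing by number was thus seen. Such correlations cannot show that the samples were unpaired, since a small shared effect could go unseen.

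At a fold of at least 3, 3 of the 6 genes remained in the authors' deposited table for the 3-week apex and 3 of 5 for the leaf. For the other pathway genes the same fold left 1 higher in the 3-week apex, 1 higher and 0 lower in the 5-week apex, and 1 higher and 2 lower in the leaf. The authors' adjusted p of at most 0.01 left 0 lower in the 3-week apex, 1 higher in the 5-week apex and 1 higher in the leaf. Counts of 6 to 18 limit LSU2 and SDI1 most.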

Other observations

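MGL, which encodes the methionine-degrading enzyme methionine gamma-lyase, was the 1 listed gene of the 3 methionine genes looked for, higher in the leaf (ratio of 2.25, the authors' deposited table). Its level was 311, 377 and 331 CPM in the 3-week apex, 282, 318 and 311 in the 5-week apex, and the leaf had 11.9, 12.4 and 9.04, so every leaf library was far below the apex. The leaf was 27.2-fold lower than the 5-week apex (-4.77 on the log2 scale, SE 0.116, edgeR adjusted p = 2.09e-15). MGL thus had a leaf to apex difference of the same sign as SDI1 and SDI2, and a listing of the opposite sign.

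Most listed glucosinolate genes were higher in the mutant leaf than in its apex, unlike the SDI genes. All 3 aliphatic genes were called higher in the leaf than in the 5-week apex, as were 4 of the 5 indole genes, where 37.1% of all tested genes were. Of these, SOT16 was not called when libraries were scaled by total counts (0.45 on the log2 scale). BCAT4 had 78.6, 81.2 and 67.9 CPM in the leaf against 0.129, 0.600 and 0.330 in the 5-week apex. MYB51, a regulator of the indole branch, was 13.3-fold higher in the leaf (edgeR adjusted p = 1.74e-10). CYP83B1, which acts in the indole branch, was called lower in the leaf by 1.26-fold (edgeR adjusted p = 0.0131), a call lost without 5-week apex replicate 3 (-0.24) or leaf replicate 3 (-0.19). CYP83B1 was listed lower in these same leaf libraries, so this direction is not independent of its listing.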
